A study of Bos taurus with 15 samples.

Results

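The transcriptome of control (Co) bovine blastocysts was described from 5 RNA-seq libraries, each made from 1 pool of 8 to 14 embryos. These were the libraries whose labels give culture without supplementation, 5 of the 15 in the series. The other libraries came from embryos cultured with fresh or frozen extracellular vesicles of the oviduct (oEVs) and were not used here, so no treatment was compared. All Co embryos were Bos taurus, produced in vitro, and the labels give them as blastocysts at day 7. The labels count 6 Co pools with 68 embryos in all, and those with the best RNA quality and concentration were sequenced from 1 ng of total RNA each. Neither the sex of the embryos nor the cow or bull behind a pool is given, and a pool mixes the cells of several embryos, so the values below are means over embryos and over cell types. In such bulk samples, fewer cells of a type and less RNA per cell cannot be told apart.

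The blastocyst is the stage at which the embryo first holds an outer epithelium and an inner cell group. The trophectoderm, the outer layer, pumps fluid into the blastocoel and later forms the placenta. The inner cell mass holds the epiblast, the source of the embryo proper, and the hypoblast (primitive endoderm), which lines the cavity and lays down basement membrane. POU5F1 and NANOG are transcription factors of pluripotency that are listed here for the inner cells. CDX2 and GATA3 are factors of the trophectoderm, KRT18 is a keratin of simple epithelia, and GATA6 and SOX17 are factors of the hypoblast. A bulk library cannot show which cells the reads on a marker came from. In ruminants the trophectoderm also secretes interferon tau, the signal by which the dam recognises the pregnancy.

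Reads were counted per gene by the authors. Levels are given here as CPM, the counts per 1000000 counts of a library's total, scaled by TMM (a trimmed mean of ratios that sets the libraries to a common level), and as mean ± SD over the 5 libraries (n = 5). Where 5 values stand in a row, they are those of replicates 1 to 5 in order. CPM is not divided by transcript length, since lengths were not at hand, so a rank among genes is a rank by reads, and a longer transcript gathers more reads than a shorter one at the same number of molecules. A gene is said to be at the floor when it had at most 3 counts in every library, and 3 counts correspond to 0.947 to 1.202 CPM of a library. The libraries held 2571558 to 2977004 counts. No p-value is given, because 1 group was described and nothing was contrasted. Nothing in the labels says how the pools relate to culture runs, so the SD may hold differences between runs, pools and library preparations alike.

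Among 34773 annotated genes, 17355 to 17883 had at least 1 count in a library (17536 ± 220.2). A count was found in at least 1 library for 21678 genes and in every library for 14339, whereas 13095 genes had none in any library. With at least 10 counts as the bar, 10908 to 11416 genes per library remained. Among the 20831 protein-coding genes, 16802 had a count in at least 1 library, 12997 in every library, and 4029 in none.

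Protein-coding genes took 72.2 ± 5.61% of all counts, with shares of 69.7, 79.2, 76.3, 70.5 and 65.1%. Genes of ribosomal RNA (rRNA) took 21.8 ± 4.87%, with 23.7, 15.5, 18.4, 23.2 and 28.0%. Replicate 2 thus held the lowest rRNA share and replicate 5 the highest, although the library chemistry cleaves rRNA inserts before sequencing. Counting error was small beside this spread, as the 95% Wilson interval of any of these shares spanned at most ± 0.0560 percentage points.

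Of the 14 rRNA genes listed, 2 held nearly all rRNA counts. LOC112444653 took 18.0 ± 4.39% of all counts, and RN18S1, the 18S rRNA gene, took 3.72 ± 0.764%. The reads on LOC112444653 numbered 3.72 to 5.86 times those on RN18S1, so the ratio of the rRNA genes to each other also differed between pools. A further 4.78 ± 0.795% of all counts lay on LOC112444681. It is typed as a pseudogene, but the annotation of the later assembly ARS-UCD2.0 places it next to both of these rRNA genes. Its shares of 5.40, 3.89, 4.05, 4.91 and 5.67% ranked the libraries in the same order as the rRNA shares. Without it, all other pseudogenes together took 0.136 ± 0.00987%. Of the counts on neither rRNA genes nor LOC112444681, protein-coding genes took 98.2 ± 0.104%, between 98.1 and 98.3% in every library, so the spread of the protein-coding share lay in these rRNA and pseudogene counts.

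**Figure D1:**
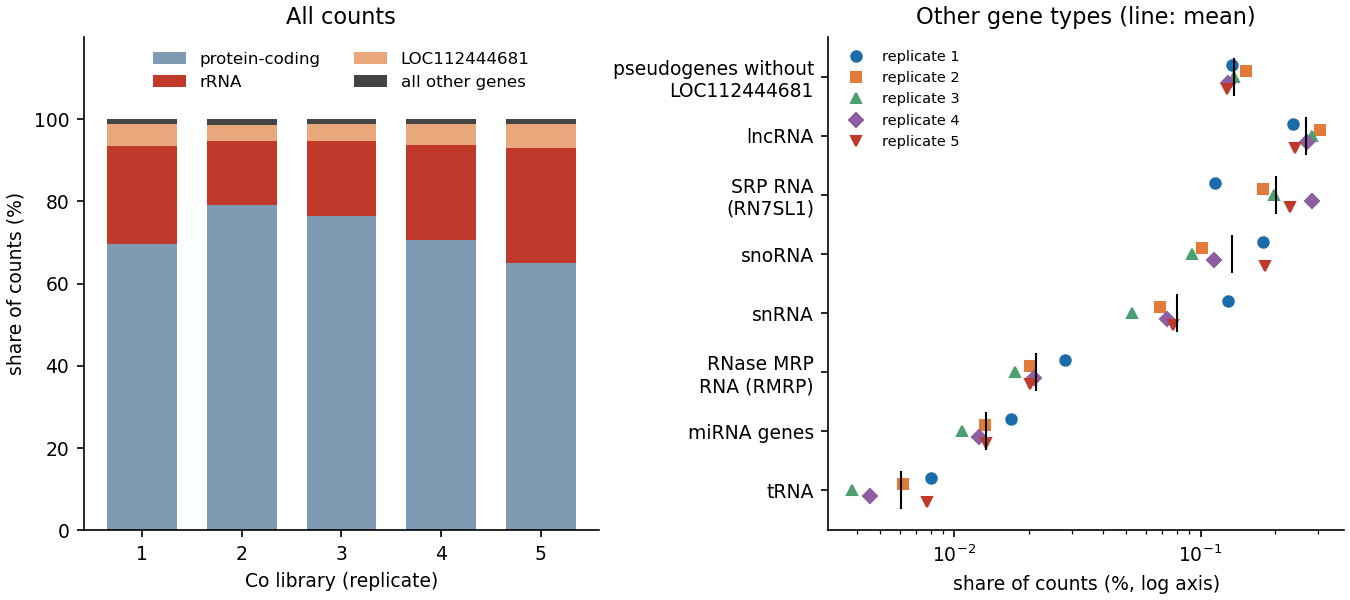
Share of all counts by gene type in each Co library. Left, stacked bars of protein-coding genes, rRNA genes, LOC112444681 and all other genes. Right, smaller types on a log axis, with 1 point per library and a line at the mean. The rRNA share is lowest in replicate 2 (15.5%) and highest in replicate 5 (28.0%), and the snoRNA share is highest in replicates 1 and 5.

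Long noncoding RNA (lncRNA) genes took 0.268 ± 0.0292% of counts, and 1233 of 2891 had a count in at least 1 library. LOC112444473 was the lncRNA gene with the most reads, at 209, 403, 267, 254 and 230.0 CPM. It was followed by LOC100848149 with 156 ± 17.1 CPM and LOC107131948 with 154 ± 35.1 CPM. XIST, the RNA that coats the inactive X chromosome in female cells, had 132, 83.9, 207, 191 and 151 CPM. It was lowest in replicate 2 and highest in replicate 3, 2.47 times apart. The share of protein-coding counts that lay on the X chromosome was likewise lowest in replicate 2 (2.50%) and highest in replicate 3 (3.57%). The numbers of male and female embryos in each pool are not given, and their part in these values was not tested.

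Small structured RNAs were measured only as far as their fragments entered the libraries, which are built to read messenger and long RNA. RN7SL1, the RNA of the signal recognition particle that guides nascent proteins to the endoplasmic reticulum, took 0.115 to 0.284% of counts and had 1192, 1631, 1875, 2882 and 2568 CPM. RMRP, the RNA of the ribonuclease that processes rRNA precursors, had 293, 184, 166, 213 and 226 CPM. TERC, the template RNA of telomerase, was even across the pools at 38.2 ± 3.53 CPM. The 634 snoRNA genes, whose products guide the modification of rRNA, took 0.134 ± 0.0439%, and the 971 snRNA genes of the spliceosome took 0.0801 ± 0.0288%. Among snRNA genes LOC112442111 had the most reads, with 366, 134, 122, 206 and 224 CPM. Among snoRNA genes LOC112441682 had the most, with 159, 51.4, 69.4, 97.3 and 237 CPM. Both were high in replicates 1 and 5 and low in replicates 2 and 3, in contrast to RN7SL1, which was lowest in replicate 1.

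Genes of transfer RNA took 0.00605% of counts and none of the 1399 passed the authors' filter. Genes of miRNA precursors took 0.0134%, and 548 of 797 had no count in any library. These libraries do not select for mature miRNAs, so the counts say little about them. MIR2887-1 had the most reads of them, with 69.1, 13.3, 24.9, 29.1 and 31.7 CPM. Of 101 immunoglobulin and T cell receptor V segment genes, 87 had no count in any library, and the most seen, LOC100294952, reached 4.42 CPM. A gene typed as a constant region, LOC101902461, had 10.7, 2.65, 17.7, 3.54 and 30.4 CPM. Among 3511 genes with no entry in the table of names, which are given here by their number, gene 104976804 had 260.1, 408, 344, 267 and 345 CPM and gene 100847604 had 146, 163, 137, 161 and 133 CPM. Transcribed pseudogenes such as LOC782776 (108 ± 28.3 CPM) and LOC112444531 (101 ± 24.3 CPM) were few, 48 in all.

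Messenger RNA was spread over many genes rather than dominated by a few. The 10 protein-coding genes with the most reads in a library took 5.86 ± 0.288% of its protein-coding counts, and the top 100 took 17.4 ± 0.455%. Between 906 and 955 genes (mean 934) held 50% of the protein-coding counts. By mean level, 30 protein-coding genes reached at least 1000 CPM and held 9.87% of the protein-coding counts. A further 1672 genes between 100 and 1000 CPM held 53.5%. The 6595 genes between 10 and 100 CPM held 33.8%, and the 4447 genes between 1 and 10 CPM held 2.65%.

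The genes with the most reads overlapped between the pools. Of the 11 genes found in the top 10 of any library, 9 were in the top 10 of all 5. Of 126 genes in the top 100 of any library, 74 were in the top 100 of all 5, and for the top 500 these were 388 of 633.

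**Figure D2:**
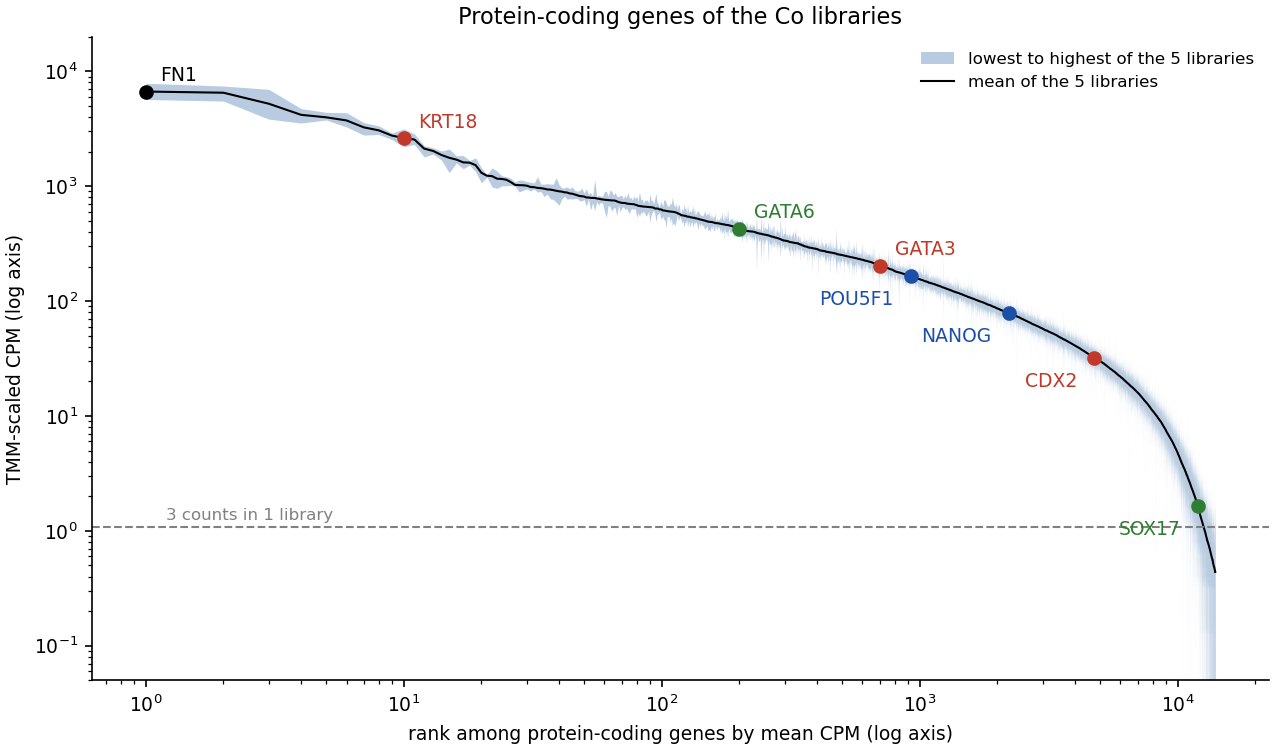
Protein-coding genes ranked by mean TMM-scaled CPM over the 5 Co libraries, on log axes. The line is the mean, the band runs from the lowest to the highest library, and points mark FN1 and the 7 lineage markers. KRT18 stands at rank 10, GATA6 at 200, POU5F1 at 923, NANOG at 2211, CDX2 at 4753, and SOX17 at 11953, just above the level of 3 counts.

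FN1, which encodes fibronectin of the extracellular matrix, had the most reads of all protein-coding genes, with 6223, 7791, 5693, 7871 and 5777 CPM. Replicates 2 and 4 were the highest and the other libraries lay close together below them. ACTB, cytoplasmic beta-actin, came next with 6949, 5509, 6906, 5761 and 7446 CPM and showed the opposite split, with replicates 2 and 4 lowest. The reads on FN1 were thus 0.776 to 1.41 times those on ACTB, above 1 in replicates 2 and 4 and below 1 in the other libraries. LRP2 (megalin, an endocytic receptor of absorptive epithelia) had 5777, 3834, 4183, 5345 and 6968 CPM, and its highest library was 1.82 times its lowest.

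Other genes of the top 20 were of the cytoskeleton, translation and chaperones. Cytoskeletal members were KRT8, a keratin of simple epithelia (4182 ± 486 CPM), ACTG1, gamma-actin (3979 ± 256 CPM), AHNAK, a very large scaffold protein (3253 ± 301 CPM), and EZR, which ties actin to the membrane of microvilli (3064 ± 227 CPM). KRT18 (2631 ± 391 CPM) and MYH9 of nonmuscle myosin (2125 ± 188 CPM) belonged here too. The genes of translation were the elongation factors EEF1A1 (3737 ± 404 CPM) and EEF2 (1613 ± 187 CPM) and the poly(A)-binding protein PABPC1 (2027 ± 89.3 CPM). Chaperones were HSPA8 (2757 ± 139 CPM), HSP90AA1 (2549 ± 237 CPM) and HSP90AB1, which varied little (1528 to 1673 CPM).

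Further genes of the top 20 serve transport, signalling and iron storage. SLC2A3, a high-affinity glucose transporter, had 1629.6, 1589.6, 1738, 1729 and 1839 CPM. FTH1, the heavy chain of ferritin, had 1308 ± 151 CPM. PTGS2, the inducible enzyme that starts prostaglandin synthesis, had 2107, 1314, 2066, 1376 and 1979 CPM. Replicates 2 and 4 were its lowest, well apart from the other three libraries.

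The 7 lineage markers were all detected in all 5 libraries, and by reads they followed the order KRT18, GATA6, GATA3, POU5F1, NANOG, CDX2 and SOX17. Each neighbouring pair stood in this order in 5 of 5 libraries. KRT18 had 2880.2, 2326, 2588, 2205 and 3154 CPM, GATA6 had 413, 479, 388, 455 and 406 CPM, and GATA3 had 211, 192, 189.7, 209.5 and 214 CPM. POU5F1 had 179.8, 159.8, 163, 162 and 159.9 CPM and was highest in replicate 1, with the other libraries between 159.8 and 163 CPM. NANOG had 89.6, 77.3, 45.4, 92.6 and 89.3 CPM, with replicate 3 far below the others. CDX2 had 33.0, 26.9, 24.6, 31.9 and 44.9 CPM, highest in replicate 5. SOX17 lay near the limit of detection with 1.43, 1.33, 1.89, 1.97 and 1.603 CPM, 23 counts over all libraries.

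Keratins, GATA3 and CDX2, listed for the trophectoderm, and POU5F1 and NANOG, listed for the inner cells, were thus present in each pool. Of the 2 hypoblast factors among these 7 markers, GATA6 was well above the floor and SOX17 was not. By reads, POU5F1 stood at 1.75 to 3.59 times NANOG, and GATA6 at 4.54 to 8.54 times NANOG. Both ratios were highest in replicate 3, where NANOG was lowest. GATA3 to POU5F1 was steadier, at 1.17, 1.199, 1.16, 1.29 and 1.34.

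Of 22 matched genes of the epiblast and pluripotency list, 17 passed the authors' filter and 2 were at the floor. The list had 9 genes at 100 CPM or more, or 40.9% of its members against 8.17% of all protein-coding genes. The transcription factor KLF5, which acts in both trophectoderm and inner cells, had the most reads, with 775, 852, 778, 778 and 805 CPM and a CV (the SD as a percentage of the mean) of 4.15%. TBX3 had 495 ± 51.3 CPM, TFCP2L1 had 319.9 ± 19.5 CPM, DNMT3B, the de novo DNA methyltransferase, had 222 ± 22.9 CPM, and ZFP42 had 136 ± 21.8 CPM. SOX2, ESRRB, SALL4, LIN28A and GDF3 were picked from the list after their values were seen. SOX2, the partner of POU5F1, had 31.5, 36.8, 19.6, 44.1 and 26.8 CPM, with replicate 3 lowest as for NANOG. ESRRB had 119 ± 4.79 CPM and SALL4 116 ± 7.90 CPM, both even between the pools. LIN28A had 15.3 ± 2.67 CPM and GDF3 3.30 ± 1.56 CPM. FGF4, a signal from epiblast to hypoblast, had 1 count in all libraries together, and NODAL, a signal of the epiblast, had 3.

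Of 25 matched trophectoderm genes, 21 passed the filter, 10 reached 100 CPM, and 1, EOMES, was at the floor with 3 counts in all. The summed level of the list was 11701, 9170.5, 11186, 9014 and 12350 CPM, of which KRT8, KRT18 and PTGS2 made up most. DAB2, an adaptor of endocytosis, had 442 ± 51.5 CPM. KRT19, a further keratin of simple epithelia, had 537, 184, 352, 321 and 578 CPM and was among the most variable genes of its level, with replicate 2 lowest and replicates 1 and 5 highest. KRT8 and KRT18, which pair in filaments, kept a ratio of reads between 1.502 and 1.72 in all libraries.

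Further members of the list, again picked after their values were seen, spanned a wide range. The factors TFAP2C (161 ± 16.2 CPM), GATA2 (108 ± 24.2 CPM) and TEAD4 (82.4 ± 16.5 CPM) lay above CDX2 by reads. PAG2, a pregnancy-associated glycoprotein of the trophoblast, had 183, 106, 181, 179.6 and 244 CPM. TKDP1, a Kunitz domain protein of the trophoblast, had 24.7, 8.95, 84.3, 33.9 and 52.9 CPM and differed 9.41-fold between replicates 2 and 3. ELF5, ASCL2 and HAND1, factors on the same trophectoderm list, stayed at 0.838, 1.42 and 1.34 CPM on average. The values of ELF5 were 1.79, 0, 0, 0.394 and 2.00 CPM, with a count of 0 in replicates 2 and 3.

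Of 20 hypoblast genes, 16 passed the filter, 8 reached 100 CPM and 3 were at the floor (FOXA2, FST and FRZB). The summed level was 7895, 9598, 7314, 9865 and 7423 CPM and was mostly FN1. LAMB1 (303, 313, 343, 361 and 290.5 CPM) and LAMC1 (186, 188, 209.9, 215 and 185 CPM) encode chains of laminin, and COL4A1 (148, 133, 144, 187 and 136 CPM) encodes a chain of type IV collagen, all of basement membrane. PDGFRA, the receptor of the platelet-derived growth factor and a surface marker of the hypoblast, had 179, 225, 91.8, 282 and 161 CPM. It was lowest in replicate 3 and highest in replicate 4, 3.07 times apart.

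Replicate 3 was also lowest for HNF4A, a factor of endoderm, with 84.2, 85.9, 44.2, 102 and 84.5 CPM. NANOG, SOX2, PDGFRA and HNF4A were thus all lowest in replicate 3, a pattern noticed after the values were seen. The trophectoderm markers CDX2 (24.6 CPM) and GATA3 (189.7 CPM) were lowest there too, so the pattern was not particular to inner cell genes. Of the 17 filtered members of the epiblast list, 5 were lowest in replicate 3, 1 was highest there, and 8 were lowest in replicate 5. Of the 16 of the hypoblast list, 6 were lowest in replicate 3 and 3 were highest there. Over all filtered genes, replicate 3 was lowest for 19.0% and highest for 19.0%, and replicate 5 was lowest for 19.4%. POU5F1 did not share the pattern, since its value in replicate 3 (163 CPM) lay among those of the other pools. GATA4 had 8.96, 1.66, 4.42, 3.54 and 4.81 CPM, and FOXA2 had 6 counts over all libraries.

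**Figure D3:**
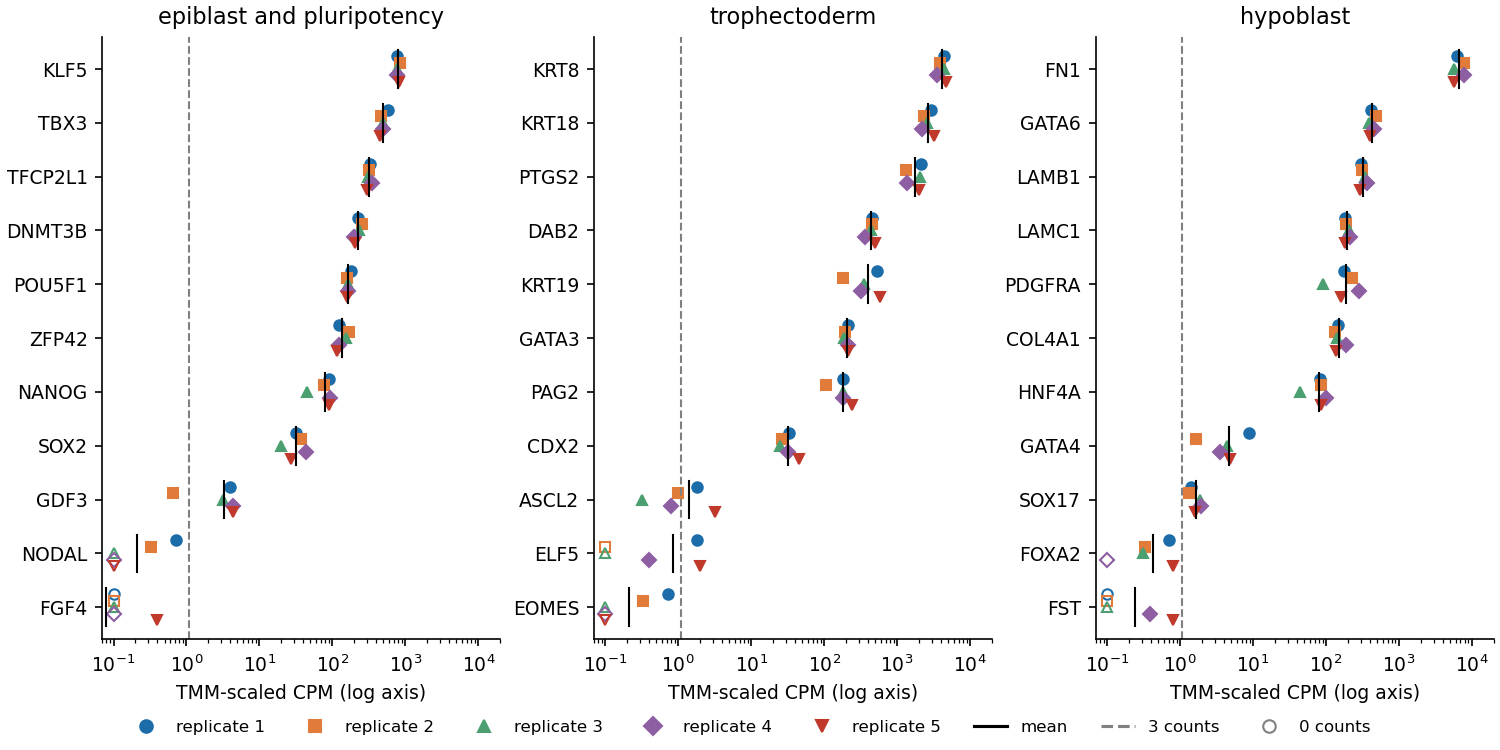
TMM-scaled CPM of epiblast, trophectoderm and hypoblast genes in each Co library, on a log axis. Points are libraries, the black line is the mean, the dashed line is the level of 3 counts (mean over libraries), and open symbols at the left stand for a count of 0. NANOG, SOX2, PDGFRA and HNF4A are among the genes lowest in replicate 3, as are CDX2 and GATA3. FGF4, NODAL, EOMES and FST lie at the floor.

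All 24 genes of the list for epithelium and blastocoel passed the filter, and 19 reached 100 CPM, or 79.2% against 8.17% of all protein-coding genes. These genes encode the junctions that seal the trophectoderm and the pumps and channels that fill the cavity. EZR had 3245, 2900.3, 3006, 2819 and 3351 CPM. DSP, desmoplakin of desmosomes, had 1315, 1014, 1176, 958 and 1351 CPM, and CDH1 (E-cadherin of adherens junctions) had 946, 1066, 956, 985 and 951 CPM. The desmosomal cadherin DSG2 had 664 ± 50.03 CPM.

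The sodium pump that drives fluid into the cavity needs a beta subunit beside its catalytic chain. The beta subunit gene ATP1B3 had 743, 606, 652, 632 and 886 CPM. ATP1B1 had only 16.5, 15.6, 10.7, 11.8 and 16.0 CPM, and the reads on ATP1B3 were 38.9 to 60.8 times as many. Tight junction genes were picked after their values were seen. They included CLDN6 (490.3 ± 77.3 CPM), TJP1 (462 ± 26.5 CPM), CLDN4 (256 ± 58.4 CPM) and OCLN, which was steady at 241, 228, 229, 238 and 246 CPM. AQP3, a channel for water and glycerol, had 155 ± 18.8 CPM. Of the 24 members, 14 were lowest in replicate 2 and 9 were highest in replicate 5. Over all filtered genes these shares were 23.0% and 18.6%.

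Glucose uptake and glycolysis were represented by 22 genes, of which 19 passed the filter and 12 reached 100 CPM. Their summed level was 6112, 5115, 5646, 5646 and 6456 CPM, lowest in replicate 2 and highest in replicate 5. SLC2A3 had the most reads of the list, and its reads were 9.93 ± 0.961 times those on SLC2A1, the glucose transporter of most cell types. PKM, the last enzyme of glycolysis, had 946, 668, 736, 765 and 875 CPM. GAPDH had 658, 483, 598, 557 and 714 CPM, and ALDOA (aldolase) had 422 ± 63.5 CPM. ENO1, enolase, varied the most of the abundant members, with 488, 217, 341, 332 and 485 CPM and replicate 2 lowest. SLC16A1, which carries lactate and pyruvate across the membrane, had 558 ± 61.1 CPM, whereas SLC16A3, the carrier typical of strongly glycolytic cells, had 2 counts over all libraries.

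For some paralogous enzymes the ratio of reads kept its direction in every pool. HK2 had 2.04 to 2.79 times the reads of HK1 (hexokinases), and LDHB had 2.89 to 3.56 times those of LDHA (subunits of lactate dehydrogenase). LDHA itself hardly differed between the pools, with 73.4, 74.3, 79.2, 72.9 and 77.3 CPM. HK1, HK2, LDHA and LDHB were compared after their values were seen. The 7 genes of the pentose phosphate pathway, which yields NADPH and ribose, all passed the filter and summed to 946 ± 47.8 CPM. TKT (transketolase) had 368, 394, 322, 382 and 369 CPM and PGD 208 ± 18.4 CPM. TALDO1, transaldolase, was highest in replicate 5, with 139, 139, 140.4, 137 and 165 CPM.

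All 24 genes of pyruvate import, pyruvate dehydrogenase and the citric acid cycle passed the filter, and 13 reached 100 CPM. Their sum of 3508 ± 136 CPM had a CV of 3.89%. CS, citrate synthase, had 641, 655, 620.5, 697 and 643 CPM. The pyruvate dehydrogenase subunit gene PDHA1 had 316, 233, 290.0, 308 and 274 CPM, PDHB had 230.4 ± 22.3 CPM, and DLD had 235 ± 27.4 CPM. IDH3A, of isocitrate dehydrogenase, had 252, 262, 241, 251 and 232 CPM, all within a narrow range.

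Fatty acid oxidation genes had fewer reads than the pyruvate and citric acid cycle list, with a median of 20.9 against 118 CPM. The median of all protein-coding genes was 3.82 CPM. The filter was passed by 14 of 17, or 82.4% against 49.8% of all protein-coding genes. At least 10 CPM was reached by 13, or 76.5% against 39.8%, and 100 CPM by 0, against 8.17%. The highest were ETFA, an electron carrier (47.6, 61.0, 49.9, 55.1 and 56.5 CPM), CPT1A, the gate for entry of fatty acids into mitochondria (40.1, 56.7, 56.2, 44.1 and 46.9 CPM), ACADM (39.03 ± 3.25 CPM), HADH (36.9 ± 3.29 CPM), HADHB (34.6 ± 5.37 CPM) and HADHA (34.1 ± 3.32 CPM). The sum of the list was 388 ± 19.9 CPM. Replicate 2, the lowest for glycolysis, was the highest here, with 420.4 CPM.

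Fatty acid synthesis and lipid storage summed to 3188, 2579, 2922, 2804 and 3301 CPM over 22 genes, 10 of them at 100 CPM or more. FASN, fatty acid synthase, had 834, 641, 661, 625 and 810.1 CPM, and ELOVL6, which lengthens palmitate, had 725, 434, 638, 604 and 645 CPM. ACLY, which makes cytosolic acetyl-CoA, had 289 ± 27.8 CPM. The desaturase gene SCD had 188, 84.6, 179.6, 151 and 228 CPM, 2.70 times apart between replicates 2 and 5. FADS1 had 220.4 ± 37.2 CPM and FADS2 166 ± 46.3 CPM. PLIN2 of the coat of lipid droplets, picked after its value was seen, had 123, 114, 119.6, 139 and 119 CPM. PLIN4 and FABP4, genes of fat cells, had 1 count each over all libraries.

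All 16 genes of cholesterol synthesis passed the filter, and 11 of them were highest in replicate 1, against 22.3% of all filtered genes. HMGCS1, an early enzyme of the pathway, had 238, 157, 173, 164 and 209.9 CPM. SREBF2, the factor that activates the pathway, had 149, 99.1, 92.8, 102 and 119.8 CPM, again highest in replicate 1. CYP51A1 had 63.0 ± 9.45 CPM and FDFT1 62.5 ± 9.07 CPM.

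Genes of serine and folate metabolism, which supply methyl groups and nucleotides, summed to 1448 ± 42.0 CPM, with a CV of 2.90%. MTHFD1L had 293, 300.1, 272, 289 and 270.0 CPM, whereas MTHFD2 had 342, 167, 255, 244 and 317 CPM, with a CV of 25.9% against 4.64% for MTHFD1L. Both encode mitochondrial enzymes of folate metabolism. AHCY had 229 ± 15.9 CPM and MAT2A 160.4 ± 16.1 CPM, both of the methionine cycle. MTHFD1 had 72.3 ± 8.67 CPM and TYMS, thymidylate synthase, 58.4 ± 9.77 CPM. TDH, picked after its value was seen and known from mouse stem cells, had 0, 0, 0, 0.394 and 1.603 CPM, with 0 counts in replicates 1, 2 and 3.

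Antioxidant genes summed to 2457, 2638, 2938, 2350.3 and 3004 CPM, with 17 of 18 past the filter. PRDX1, a peroxiredoxin, had 903, 997, 1042, 813 and 1006 CPM and TXN, thioredoxin, 273, 348, 350.3, 239 and 405 CPM. TXNRD1, which reduces thioredoxin, had 152, 181, 309.6, 192 and 307 CPM, with replicates 3 and 5 above the others. PRDX2 had 225 ± 21.6 CPM, PRDX6 164 ± 14.3 CPM and CAT (catalase) 98.9 ± 11.3 CPM. HMOX1, an inducible enzyme of haem breakdown from the stress response list, was picked after its values were seen and had 15.0, 41.1, 57.8, 16.5 and 50.1 CPM. Replicates 2, 3 and 5 were high and replicates 1 and 4 low for it.

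Among stress genes, HSPA5 of the endoplasmic reticulum had 924, 683, 1029, 857 and 1021 CPM, HSPB1 823 ± 61.9 CPM and MDM2, the inhibitor of p53, 192, 323, 249, 236 and 223 CPM. HSPA1A, the inducible heat shock gene, had 127, 46.1, 130.3, 121 and 99.8 CPM, with replicate 2 lowest. BCL2L1, which protects from apoptosis, had 62.8 ± 7.92 CPM. No stress gene was at the floor.

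**Figure D4:**
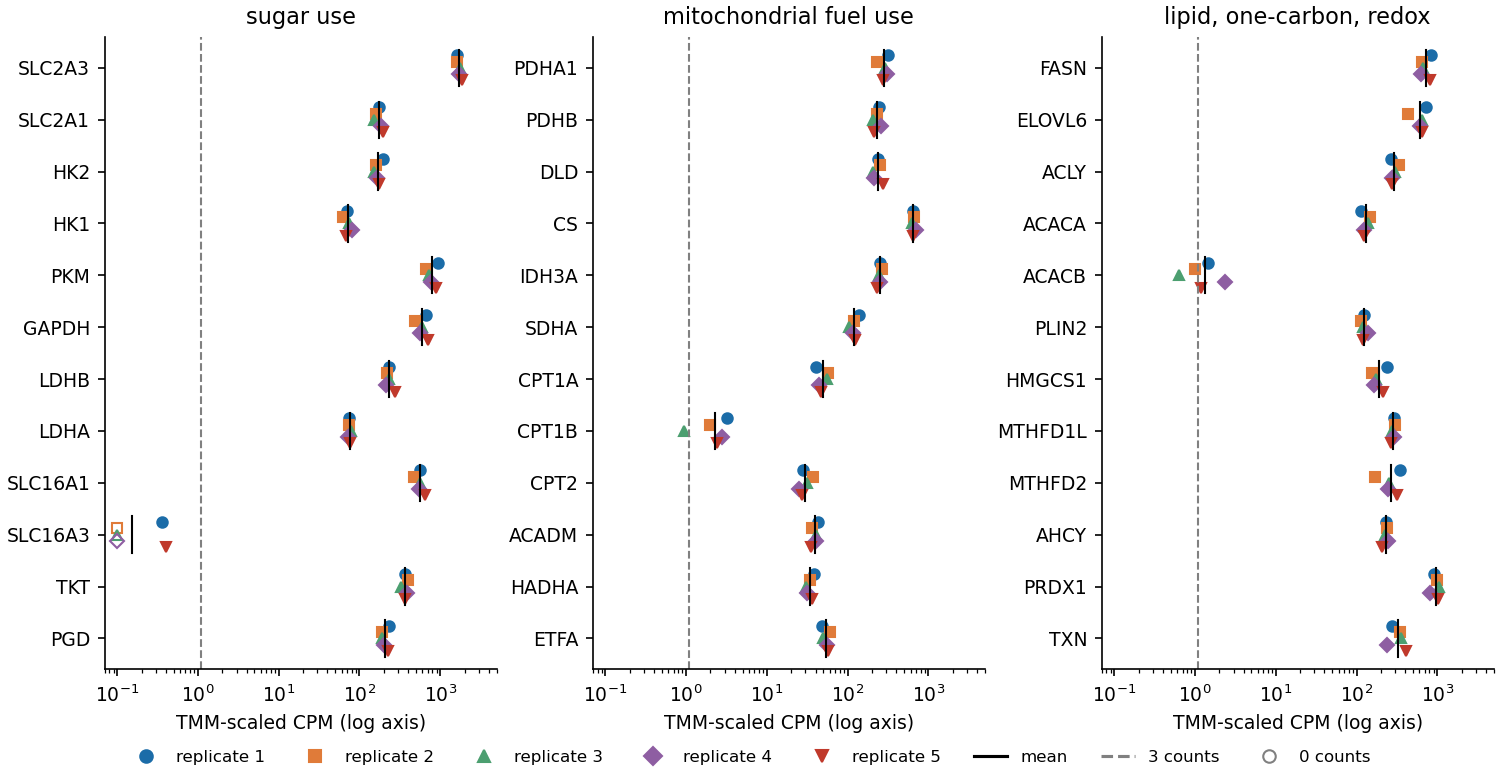
TMM-scaled CPM of metabolic genes in each Co library, on a log axis, for sugar use (left), mitochondrial fuel use (middle) and lipid, one-carbon and redox metabolism (right). Points are libraries, the black line is the mean, the dashed line is the level of 3 counts (mean over libraries), and open symbols stand for a count of 0. SLC2A3 lies above SLC2A1, LDHB above LDHA and ACACA above ACACB by reads in every library, and genes of fatty acid oxidation lie under 100 CPM.

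Genes stored in the oocyte are normally degraded before this stage. Of 23 matched genes, 7 were at the floor, or 30.4% against 34.7% of all protein-coding genes. The filter was passed by 4, or 17.4% against 49.8%, and 10 CPM was reached by 2, or 8.70% against 39.8%. DPPA3, which protects maternal methylation and is also made by pluripotent cells, had 98.5, 134, 89.0, 89.8 and 66.5 CPM, and ZAR1L had 20.8, 28.2, 23.0, 21.3 and 17.2 CPM. BTG4, which helps to clear maternal RNA, had 3.58, 11.6, 7.57, 12.6 and 1.603 CPM, with replicates 2 and 4 highest. TLE6 had 4.64 ± 1.84 CPM, ZP2 of the zona pellucida 1.43, 6.63, 6.00, 1.97 and 0.801 CPM and KHDC3L 2.97 ± 1.38 CPM. The list summed to 138, 214, 158, 155 and 98.6 CPM, highest in replicate 2 and lowest in replicate 5, and DPPA3 made up most of it.

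Lineages that arise after the blastocyst, and cells of the reproductive tract and blood, were covered by 10 lists with 152 matched genes. Of these, 81 were at the floor, or 53.3% against 34.7% of all protein-coding genes, and 27 had no count in any library. At the other end, 40 passed the filter and 22 reached 10 CPM. A count of 0 in all 5 libraries allows a level of up to 0.214 CPM of the counts summed over the libraries, and this limit covers counting error only.

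Primitive streak and mesoderm genes were at the floor for 11 of 14. TBXT (brachyury), MIXL1, MESP1, FGF8, CER1 and EVX1 had 0 counts in every library. GSC, a factor of the early organiser and anterior endoderm, was the exception, with 19.3, 22.2, 11.99, 29.1 and 16.0 CPM. KDR had 1.68 ± 0.569 CPM and WNT3A 1.10 ± 0.778 CPM.

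Liver and gut genes were at the floor for 14 of 16, and AFP, TTR, VIL1, PDX1, FABP1 and FABP2 had 0 counts in every library. ALB, albumin, had 1 count over all libraries. APOB had 6, of which 5 lay in replicate 3. APOA1, an apolipoprotein that many absorptive epithelia make, stood apart with 154, 78.6, 158, 140.2 and 223 CPM, at rank 1034 among protein-coding genes. It was lowest in replicate 2 and highest in replicate 5.

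Neural genes were at the floor for 9 of 16, among them SYP at 0 and SOX1, GFAP, NEUROG1, PAX6, NEUROD1, OLIG2 and NEUROG2 at up to 8 counts over all libraries. The cytoskeletal members TUBB3 (20.1, 19.6, 26.2, 20.5 and 20.8 CPM) and NEFL (13.3, 24.9, 16.7, 18.1 and 15.6 CPM) were well measured. ELAVL3 had 7.73 ± 3.33 CPM, SNAP25 6.38 ± 3.49 CPM, NEFM 5.48 ± 1.41 CPM and STMN2 1.00 ± 0.563 CPM.

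Muscle genes were at the floor for 7 of 16, and MYOD1 had 0 counts and MYOG 1. TTN, titin, one of the longest messenger RNAs, stood apart with 234, 381, 368, 271 and 214 CPM, highest in replicates 2 and 3. ACTC1 (8.40 ± 3.71 CPM), TNNI3 (6.92 ± 3.88 CPM), MYH6 (4.25 ± 1.48 CPM), ACTA1 (2.45 ± 1.07 CPM) and MYH7 (1.92 ± 1.47 CPM) were low.

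Blood and immune genes were at the floor for 9 of 16, and HBB, HBM and GATA1 had 0 counts. PTPRC (CD45 of white blood cells) had 1 count over all libraries. HBA had 6.09, 6.30, 0.316, 0 and 0.401 CPM, nearly all of it in replicates 1 and 2. RUNX1 had 11.8, 24.5, 11.05, 28.0 and 14.4 CPM and ALAS2 18.6, 3.32, 4.42, 12.2 and 5.21 CPM. The list summed to 30.6 to 52.8 CPM.

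Markers of cells that could adhere to embryos were examined in the same way. For cumulus and granulosa cells, PTX3 and LHCGR had 0 counts, INHA had 2 and AMH 2, whereas CYP19A1 (aromatase) had 16.1, 15.6, 23.0, 17.7 and 15.2 CPM and FSHR 7.16, 7.29, 11.99, 11.03 and 14.0 CPM. HAS2 had 1.43, 0.663, 0.947, 3.94 and 1.202 CPM. The list summed to 135 to 201 CPM, of which SERPINE2 (59.5, 80.9, 77.0, 67.7 and 81.3 CPM), an inhibitor of proteases, and CYP11A1, the first enzyme of steroid synthesis, which trophoblast also makes, held most. CYP11A1 had 92.8, 24.2, 59.3, 52.0 and 77.7 CPM and STAR 5.66 ± 1.29 CPM.

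For sperm and germ cells, PRM2 had 1 count, TNP1 1.07, 1.66, 1.89, 1.58 and 0.401 CPM and PRM1, a protamine, 1.07, 5.97, 10.4, 4.73 and 2.00 CPM, highest in replicate 3. The genes SYCP3 (31.9, 34.8, 55.5, 37.4 and 37.3 CPM), MAEL (17.8 ± 4.71 CPM), DDX4 (7.88, 9.62, 14.2, 8.27 and 9.62 CPM) and DAZL (1.43, 4.64, 10.4, 3.15 and 3.21 CPM), known from meiosis and the germ line, were also highest in replicate 3. The list summed to 60.5, 85.2, 123, 83.1 and 70.1 CPM.

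For the oviduct, the secretory marker OVGP1 had 11 counts over all libraries and was at the floor. FOXJ1 of ciliated cells had 0.358, 0, 1.26, 0.394 and 1.202 CPM, TEKT1 0 counts and PAX8 12.2, 8.29, 8.52, 7.48 and 10.8 CPM. CLU (40.7 ± 7.68 CPM) and C3 (33.5 ± 4.27 CPM), secreted proteins of many tissues, were the highest of the list, which summed to 76.6 to 107 CPM.

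For fibroblasts and stroma, only 2 of 14 genes were at the floor. COL1A2 had 60.2, 51.7, 55.5, 44.1 and 86.1 CPM, COL1A1 11.1, 12.9, 25.2, 14.6 and 28.8 CPM, and ACTA2 (smooth muscle actin) 68.8, 29.8, 94.7, 55.9 and 73.3 CPM. COL3A1 had 2.51, 0, 0.316, 0.394 and 18.8 CPM, with replicate 5 far above the others. POSTN had 35.5, 2.65, 0, 16.1 and 41.7 CPM and LUM 15.4, 2.65, 1.58, 7.09 and 13.6 CPM, both highest in replicates 1 and 5, and DCN had 2.15, 0.995, 2.84, 0.394 and 5.21 CPM. The list summed to 206, 105, 189, 149 and 279.7 CPM. Whether these reads came from cells other than the embryo's own was not tested.

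Late trophoblast and placenta genes were at the floor for 9 of 16. CSH2, PAG17, PAG9, PRP1 and PLAC1 had 0 counts in every library, and PRL and PGF had 2 each. Others were already present. HSD3B1, of steroid synthesis, had 238, 76.9, 152, 176 and 245 CPM, and SSLP1, a secreted protein of the Ly-6 family, had 118, 17.9, 66.3, 52.8 and 115 CPM. PAG1 had 24.7, 15.9, 29.3, 21.3 and 29.6 CPM, GCM1, the factor of cell fusion in placenta, 14.3, 20.6, 12.3, 20.1 and 15.6 CPM, and PAG11 8.24, 1.33, 8.84, 5.51 and 14.4 CPM. The list summed to 408, 135, 271, 281 and 424 CPM and was lowest in replicate 2 and highest in replicate 5.

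The spread between the pools was estimated over the 10832 genes of the authors' filtered table. The common biological coefficient of variation (BCV), the spread of the true level between libraries with counting error taken off, was 0.152. The CV of CPM had a median of 16.6%, where counting error alone would give 11.5%. For the 3459 genes of at least 50 CPM these values were 11.3% and 5.98%, and for the 151 genes of at least 500 CPM 10.5% and 2.24%, so for abundant genes the spread lay mostly beyond counting. The highest library was less than 1.5 times the lowest for 48.8% of filtered genes and more than 2 times for 19.99%. Of the 22 reference genes commonly used to scale other assays, all passed the filter, and their CV had a median of 10.6%.

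Log2 CPM of the filtered genes correlated between pairs of libraries with Pearson's r of 0.949 (replicates 1 and 2) to 0.971 (replicates 1 and 5), a description across genes, which are not independent replicates and share library depth. Replicate 2 had the lowest mean r with the others (0.959) and replicate 4 the highest (0.968).

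Gene types differed in spread. The median CV was 16.2% for 10382 protein-coding genes, 28.1% for 94 lncRNA genes, 54.4% for 85 snoRNA genes and 48.5% for 17 snRNA genes. Counting alone would give 11.2%, 21.5%, 21.7% and 15.9%. Of the 102 filtered snoRNA and snRNA genes, 52 were highest in replicate 1 and 35 in replicate 5. Among them 48 were lowest in replicate 3 and 38 in replicate 2. Over all filtered genes, 22.3% were highest in replicate 1 and 18.6% in replicate 5, and 19.0% were lowest in replicate 3 and 23.0% in replicate 2. The rRNA share was highest in replicate 5 and lowest in replicate 2. The snoRNA share was likewise highest in replicate 5 (0.184%) but lowest in replicate 3 (0.0924%). The snRNA share was highest in replicate 1 (0.129%) and lowest in replicate 3 (0.0529%). The part of the rRNA share in the spread of small RNA genes was not tested. LOC112442483, a snoRNA gene, had 63.8, 13.3, 19.9, 40.6 and 141 CPM, and LOC112446131, a snRNA gene, had 181, 52.7, 42.9, 48.8 and 88.5 CPM. LOC112442867, a snoRNA gene too, had 115, 32.2, 35.03, 37.0 and 58.1 CPM.

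Among the 10 genes with the largest CV, of those at 50 CPM or more, 4 were small RNA genes and 1, gene 112445780, had no entry in the table of names. The latter had 71.6, 19.6, 423, 10.2 and 43.3 CPM, 41.3 times more in replicate 3 than in replicate 4. MUC1, a mucin of apical epithelial surfaces, had 216, 21.9, 72.9, 96.5 and 126 CPM, a CV of 67.6%, with replicate 2 lowest and replicate 1 highest. MMP12, a protease of the extracellular matrix, ran the other way, with 22.2, 121, 123, 55.1 and 56.9 CPM and replicate 1 lowest. LOC112442408 (75.2, 59.7, 71.0, 251 and 199.5 CPM) and LOC101905194 (282, 81.6, 73.8, 109 and 111 CPM) are protein-coding and known by code only. SSLP1 was also among the 10.

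**Figure D5:**
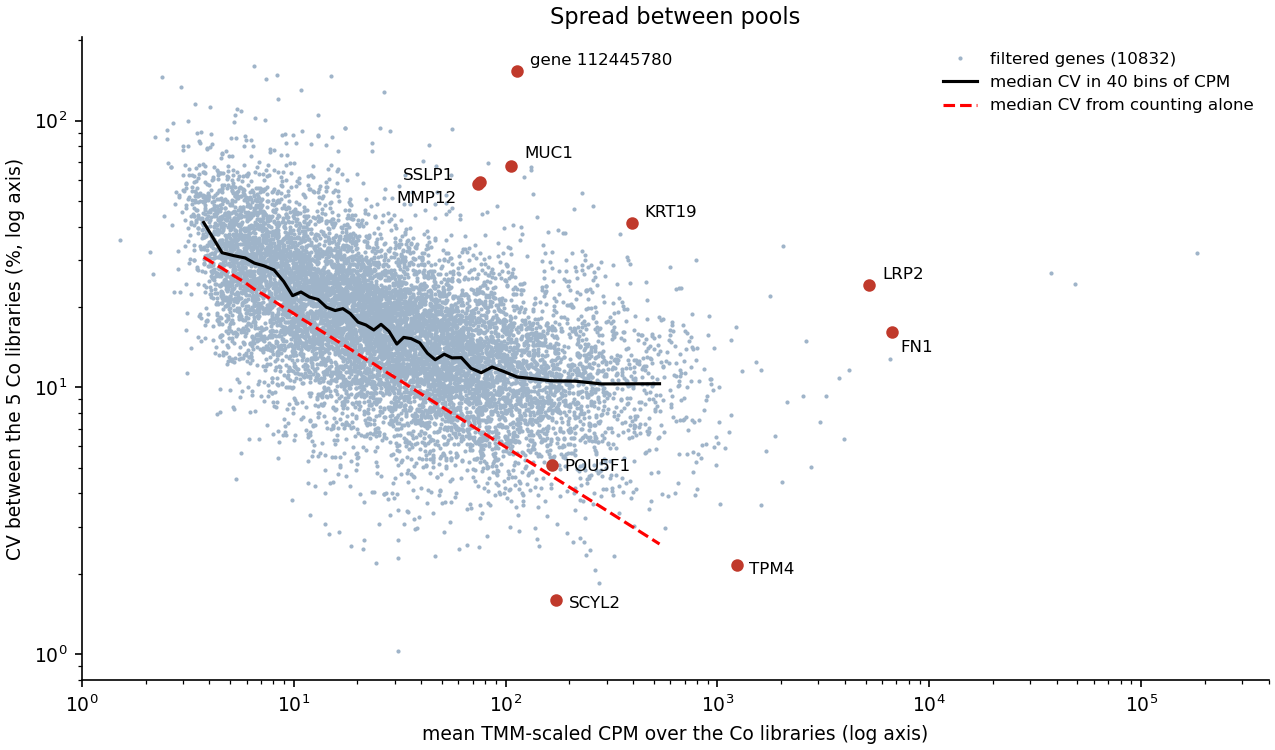
CV between the 5 Co libraries against mean TMM-scaled CPM for the filtered genes, on log axes. The black line is the median CV by level, the dashed red line the CV that counting alone gives, and red points are named genes. The median CV is 29.5% for genes under 10 CPM and 10.5% for genes of at least 500 CPM, and MUC1, MMP12, SSLP1 and KRT19 lie above it while SCYL2 and TPM4 lie below.

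Beyond these, several genes of the trophoblast, the steroid pathway and epithelial surfaces were among the 30 most variable at this level, a list read after the values were seen. IFNT3, an interferon tau gene, had 70.2, 21.2, 82.1, 35.1 and 70.1 CPM, with replicates 2 and 4 lowest. EPAS1, a factor of the response to low oxygen, had 78.5, 26.2, 45.8, 59.1 and 94.95 CPM, and SCIN, which severs actin, had 131, 38.5, 76.7, 57.1 and 106 CPM. Interferon tau genes are near copies of each other, so reads can be split among them by counting and the value of IFNT3 alone is uncertain. HSD3B1, CYP11A1 and KRT19 belonged to this list as well.

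Replicate 2 was at the low end of many of these genes. Of the 100 protein-coding genes with the largest CV at 50 CPM or more, replicate 2 was lowest for 54 and replicate 1 highest for 34. Over all 3414 protein-coding genes at this level, replicate 2 was lowest for 21.5% and replicate 1 highest for 19.8%. The list sums for late trophoblast ranked the libraries 5, 1, 4, 3 and 2 from high to low, which was also the order of the rRNA shares. No other list had exactly this order. The glycolysis list ran 5, 1, 3, 4 and 2, and the epiblast list 2, 1, 4, 3 and 5. The part of the rRNA share in these values was not tested.

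At the steady end, the 10 genes with the smallest CV at 50 CPM or more included genes of trafficking, the cytoskeleton and chromatin, and 9 of them varied less than counting alone would give on average. SCYL2, which acts in clathrin transport, had 173, 174, 177, 172 and 169.9 CPM, a CV of 1.599% where counting gives 4.53%. CAPZA1, which caps actin filaments, had 269, 283, 276, 274 and 275 CPM, and TPM4, a tropomyosin, had 1263, 1205, 1262, 1224 and 1218 CPM. DMXL1 (258 to 272 CPM), RAD23B (319 to 337 CPM), KDM5B, a histone demethylase (236 to 248 CPM), CLINT1 (243 to 260.3 CPM), SLC12A2 (58.0 to 62.1 CPM), ATP6V1H (73.2 to 77.9 CPM) and SNX6 (140.2 to 149 CPM) completed the list. These are the extremes of 3459 genes.

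Among reference genes, the steadiest was SF3A1 of the spliceosome with 127, 144, 132, 136 and 131 CPM (CV 4.82%) and the least steady HPRT1 with 38.3, 41.1, 60.0, 42.5 and 38.1 CPM (CV 20.7%). ACTB had a CV of 12.8%, GAPDH 14.8%, YWHAZ 10.1% and H2AZ1 10.6%. YWHAZ had 402, 514, 523, 501 and 509 CPM and H2AZ1 155, 200.3, 201, 203 and 199.9 CPM, both lowest in replicate 1. The summed level of the 22 genes was 18668 ± 1142 CPM, a CV of 6.12%. ACTG1 and EEF1A1 had CVs of 6.43% and 10.8%. RPLP0, RPS18 and RPL15 of the ribosome had CVs of 10.03%, 11.01% and 9.82%, and PPIA, TUBA1B, SUZ12, PGK1, UBE2K, SDHA, B2M, GUSB and TBP lay between 7.29% and 16.6%.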

How the data were processed

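Total RNA of 5 pools of control in vitro produced bovine blastocysts (day 7 in the labels, although the study's text counts 8 days of culture) was amplified with the Ovation SOLO kit, depleted of rRNA by targeted cleavage and sequenced as single-end reads of 125 bases on a HiSeq 2500. The authors deposited raw counts of reads per gene on ARS-UCD1.2 (bosTau9) with the NCBI annotation, as a table of 34773 genes and a filtered table of 10832 genes holding the same counts. The submitters' processing notes list Trim Galore 0.4.3.1, HISAT2 2.1.0 and featureCounts 1.6.3, while the methods of the study name QuasR for counting, and which made the tables could not be settled here. How reads matching several genes or copies were counted is not given in the sources used here, so near-identical genes, such as keratins, interferon tau and PAG genes, are uncertain. The libraries select strand, but the strand setting of the counting is not given either, so overlapping and antisense genes are uncertain too.

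Of the gene identifiers, 31262 were matched to names, types and chromosomes in the RefSeq table of ARS-UCD2.0. It gave the X chromosome genes and the place of LOC112444681 beside the rRNA genes, and no coordinates are printed here. Transcript lengths, sequences and the 13 mitochondrially encoded genes were not analysed here. CPM was the count divided by the library's total in the full table (2571558 to 2977004 counts) times its TMM factor, computed by edgeR 4.0.16 in R 4.3.3 from the filtered table, whose genes held 99.0 to 99.2% of counts. The BCV came from edgeR with an intercept only and was checked on simulated data. The exact test planned for the order of the markers was not used, as it required lengths. Size factors of DESeq2 1.42.0, plain totals, other filters and thresholds, and leaving out each library were tried. Wilson intervals at 95% and the floor of 3 counts cover counting error only. The methods of the study name no molecular identifiers, so reads that PCR copied from 1 molecule may be counted as independent. Tables and figures were made with Python 3.11.15.

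Gene lists for lineages, metabolism and other cell types, and the choice of libraries, were made with earlier results of these data known. Genes named are the 7 markers, the 20 protein-coding genes with the most reads, the 3 highest of other gene types of at least 10 genes, the 6 highest of each list and the lineage genes at the floor, the 10 largest and 10 smallest CVs of filtered genes at 50 CPM or more, the reference genes and XIST, with others named as chosen after their values were seen. Some genes of the rule are not reported here.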

Additional observations from a re-analysis of the deposited data

Results flagged for a closer look

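With 5 libraries, a value stood apart when its gap to the next library exceeded 0.71 of the range, the 95% limit of Dixon's test. Chance alone marks about 1 in 20 such groups. Of 222 named genes, 18 (8.11%) had such a library, and of the 10832 filtered genes 597 (5.51%) did.

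Replicate 3 had the most protein-coding genes with at least 1 count (15093), and also the highest total (2977004 counts). Over all genes, the number expected at the lowest total was 17558.5 in replicate 3 and 17477.8 in replicate 2. Replicate 3 was also high for SYCP3 (55.5 CPM), DDX4 (14.2 CPM), TUBB3 (26.2 CPM), HPRT1 (60.0 CPM), APOB (1.58 CPM, from 5 counts) and gene 112445780 (422.6 CPM).

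Replicate 1 stood apart as high for POU5F1 (179.8 CPM) and LOC101905194 (281.9 CPM) and as low for YWHAZ (401.9 CPM) and H2AZ1 (155.5 CPM). The CV of POU5F1 was 5.13%, where counting alone would give 4.65%. Replicate 2 was low in the summed level of the oviduct epithelium list (76.6 CPM) and for NEFM (2.98 CPM, from 9 counts) and high for SNAP25 (12.6 CPM). Replicate 4 was high for COL4A1 (187.5 CPM) and HAS2 (3.94 CPM, from 10 counts). Replicate 5 was high for COL3A1 (18.8 CPM) and TALDO1 (164.7 CPM) and low for MYH9 (1797 CPM).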

How the results depend on the processing

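No paired analysis was possible because 1 group was described and the results come from no test, so no replicate block could be fitted. Levels rest on 1 scale. Leaving out 1 of 5 libraries cannot move a mean by more than the SD, so that setting was no check of the levels. With plain totals and with size factors of DESeq2, 0 of 222 named gene levels moved by more than their SD. With totals that left out the rRNA genes 149 did, as the denominator shrank. For the same reason, protein-coding genes took 92.2% of counts on genes other than rRNA, and 98.2% without LOC112444681 too, in place of 72.2%. The 2 alternatives on LOC112444681 were chosen after seeing the data. The top 100 genes took 16.0% of non-rRNA counts in place of 12.5% of all. Fewer genes were detected, 11103, with at least 10 counts as the bar, by construction. The genes shared by all libraries numbered 36 for the top 50 and 388 for the top 500. Silent genes numbered 27 where 0 counts in every library were required in place of 81.

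The BCV was 0.174 with plain totals and 0.132 for genes of at least 50 CPM, against 0.152. The median CV was 18.6% with plain totals and 11.3% for genes of at least 50 CPM, against 16.6%. The cause of the difference with plain totals was not tested. Leaving out each library gave a BCV of 0.137 (without replicate 2) to 0.165 (without replicate 4) and a median CV of 15.4 to 16.6%. It gave 17449 to 17581 genes with a count, 20.2 to 23.3% of counts on rRNA genes and 70.4 to 73.9% on protein-coding genes. The top 100 genes took 12.3 to 12.7%, 75 to 79 genes were shared in the top 100, and 81 to 85 genes were silent. The shared and silent numbers can only stay or rise when a library is left out. All 6 neighbouring markers kept their order, which was fixed in advance because each pair stood in this order in 5 of 5 libraries. The alternatives that needed mitochondrial genes or coding lengths were not run. Depth limited genes under about 1 CPM.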

Other observations

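Gene families were read beyond the lists, with members chosen by symbol and all values given as descriptions. Of all protein-coding genes, 34.7% were at the floor and 49.8% passed the filter. Olfactory receptor genes were almost silent, with 1030 of 1041 at the floor and 976 at 0 in every library. OR4X17 had the most reads of them, with 7.88, 6.63, 8.52, 7.88 and 8.41 CPM. All 23 keratin-associated protein genes and 21 of 22 beta-defensin genes were at the floor. Of 57 keratin genes, 44 were at the floor, and 6 passed the filter, among them KRT8, KRT18, KRT19 and KRT7.

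Of the 39 HOX cluster genes, which pattern the body axis later, 19 were at the floor (48.7%, against 34.7% of all protein-coding genes). The filter was passed by 4 of them. HOXC13 had the most reads with 5.73, 6.63, 6.31, 3.54 and 5.61 CPM. Of 18 SOX genes 8 were at the floor (44.4%), and SOX13 had the most reads (52.3 ± 7.29 CPM). Of 45 FOX genes 14 were at the floor (31.1%), a share under that of all protein-coding genes. FOXI3 had the most reads of them, with 142, 164, 141, 151 and 111 CPM. Of 6 GATA genes, only GATA1 was at the floor (16.7%), and of 22 claudin genes 12 were (54.5%), with CLDN6 the highest. Of 20 PAG genes 16 were at the floor (80%), and PAG2 led. Beside IFNT3, IFNT2 had 2.87, 0.663, 5.05, 0.788 and 3.61 CPM.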
